A study of Mus musculus with 8 samples.

Results

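The genes described here are 10 members of the Hippo pathway: the coactivator genes Yap1 and Wwtr1, the 4 TEAD transcription factor genes Tead1 to Tead4, and the target genes Ankrd1, Amotl2, Lats2 and Ajuba. They were chosen by symbol from the 18671 genes of the expression table, and all 10 were found in it. Values came from RNA-seq of BMEL cells, a bipotential cell line from mouse embryonic liver that can take on hepatocyte or cholangiocyte features. Cells were grown on collagen in medium with serum, insulin, IGFII and EGF, which both groups share, and total RNA was taken 48 h after transfection. The control group received the pcDNA3 plasmid (n = 4) and the GRHL2 group received a plasmid for Flag-tagged human GRHL2 behind an EF1A promoter (n = 4). Because the GRHL2 plasmid also carries enhanced green fluorescent protein, GRHL2 is not the sole difference between the plasmids, and the transfected share of the cells is not given per sample. The comparison asked which genes respond to forced expression of GRHL2, an epithelial transcription factor, in hepatic progenitor-like cells.

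The Hippo pathway is a kinase cascade that restrains tissue growth. The kinases MST1 and MST2 activate LATS1 and LATS2, which phosphorylate YAP and TAZ (the product of Wwtr1) and keep them in the cytoplasm. Unphosphorylated YAP and TAZ enter the nucleus and bind TEAD proteins, which recognise the DNA word GGAATG. In the liver, YAP activity is known for its part in organ size and in biliary cell identity. Because this regulation acts on proteins, transcript levels of Yap1 or the kinases do not measure it, and target gene transcripts are the usual RNA readout.

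Values were read as a log2 scale per transcript length (regularized logarithm, rlog, less the log2 of length in kb), on which a difference of 1 between samples is a doubling. This reading is an inference, since the methods speak of a division of rlog by length. In the table, adding log2 length brought the lower limits of 5 groups of genes by length to within 0.0967 of each other, against 2.47 without it. The rlog pulls samples together where a gene has few reads, and differences of low genes are therefore too small on this scale. Sample medians lay between 6.42 and 6.49, and read depth is unknown. The targeted gene followed the labels: Grhl2, counted under the mouse symbol, read 4.68, 4.57, 4.42 and 4.44 in control replicates 1 to 4 and 6.30, 6.96, 5.65 and 6.05 in the GRHL2 samples. Of the marker lists, the 7 biliary and progenitor genes averaged 6.82 (Sox9) to 15.36 (Krt8) and the 6 hepatocyte genes -0.64 (Cps1) to 11.16 (Hnf4a), with Alb at 5.22. Markers of other cell types spanned 1.24 (Cdh5) to 3.29 (Pecam1) for 4 endothelial genes, -0.18 (Pdgfrb) to 5.28 (Col1a1) for 3 mesenchymal genes and 0.14 (Cd3e) to 6.17 (Cd68) for 5 immune genes, with Ptprc at 0.89 and Csf1r at 4.46. Samples that share a replicate number were alike in how they departed from their group. Replicates 1 and 2 also stood apart from replicates 3 and 4 in both groups, a division the labels do not name. The labels do not say whether replicates are separate cultures, although the study calls them independent biological replicates, so p-values measure the spread between these samples.

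Among the 10 genes, Tead3 was the single gene past the threshold of limma (adjusted p under 0.05 over all genes): it was higher in GRHL2 samples by 0.29 ± 0.059 (log2 ± SE). Yap1, Wwtr1 and the other TEAD genes differed between groups by at most 0.12 in either direction and did not pass the test. Of the 4 target genes, 0 passed without a replicate block, where 10.5% of all genes were called higher and 5.91% lower. Lats2 and Ankrd1 passed as lower when the replicate number entered the model as a block, where 18.2% of all genes were called higher and 13.9% lower. For most of these genes the larger difference lay elsewhere. In 8 of the 10, replicates 1 and 2 differed from replicates 3 and 4 by more than GRHL2 samples differed from controls, and for Ankrd1 that difference was 1.70-fold.

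**Figure D1:**
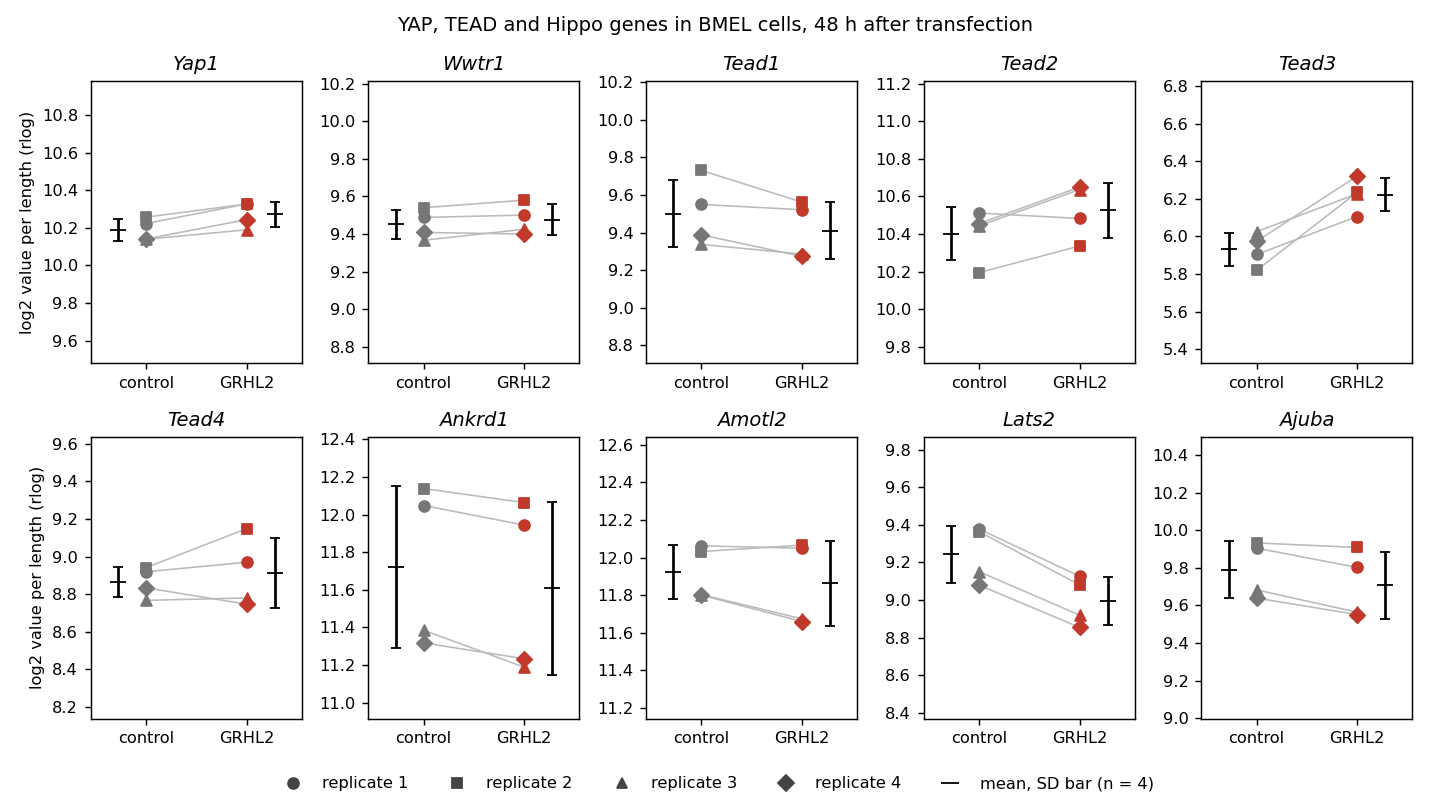
Log2 value per length (y axis) of the 10 genes in control (grey) and GRHL2 (red) samples, with a marker shape per replicate number, grey lines joining samples of one number, and bars for the mean and SD (n = 4). Tead3 is the one gene whose groups do not overlap, all 4 lines of Lats2 fall by a similar amount, and Ankrd1 splits into replicates 1 and 2 (11.94 to 12.14) and replicates 3 and 4 (11.19 to 11.38).

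Read per length over the 8 samples, the target genes Amotl2 (mean value 11.89) and Ankrd1 (11.66) stood highest, above 97.5% and 96.9% of all genes in the table. Tead2 (10.46) and Yap1 (10.23) followed, and then Ajuba (9.75), Wwtr1 (9.46), Tead1 (9.46), Lats2 (9.12) and Tead4 (8.89). Tead3 was lowest at 6.08, above 47.5% of genes. Sample ranges of neighbours in this order overlapped, with exceptions between Ankrd1 and Tead2, between Yap1 and Ajuba and between Tead4 and Tead3. Among TEAD genes, Tead3 was the lowest with and without the division by length. Tead2 was the highest per length, with no sample overlapping another TEAD gene, but its mean transcript length was 0.868 kb against 2.49 kb for Tead1, and with log2 length added back Tead1 (10.77) stood above Tead2 (10.26).

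Yap1 encodes YAP, the main coactivator of the pathway (GRCm38, chr9:7931999-8004596, minus strand). Its values were 10.22, 10.26, 10.14 and 10.14 in control replicates 1 to 4 and 10.33, 10.33, 10.19 and 10.24 in GRHL2 samples. Each GRHL2 sample lay above the control of the same number, but the groups overlapped. The log2 fold change was 0.08 (95% confidence interval -0.03 to 0.20), with an adjusted p of 0.311 by limma. With the replicate number as a block, the interval was 0.008 to 0.155 and the adjusted p 0.0865, which did not pass either. Yap1 exons share 116 bases with those of Gm20416 on the opposite strand, and counting ignored strand. The genes whose values most resembled Yap1 over the 8 samples were Elmod1 (Pearson's r = 0.98), Gm6161 (0.98) and Arhgdig (0.98), which is a description over samples that share the replicate division.

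Wwtr1 encodes TAZ, the paralogue of YAP (chr3:57455649-57575910, minus strand). It read 9.49, 9.54, 9.37 and 9.41 in controls and 9.50, 9.58, 9.43 and 9.40 in GRHL2 samples, and the groups overlapped almost wholly. The log2 fold change of 0.03 (95% confidence interval -0.10 to 0.16, adjusted p = 0.806) turned to -0.0045 when samples were set to equal medians, and to -0.0023 and -0.0088 without control replicate 3 and without GRHL2 replicate 2.

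Tead3 (chr17:28331671-28350817, minus strand) encodes a TEAD factor. Control samples read 5.90, 5.82, 6.03 and 5.97, and GRHL2 samples read 6.11, 6.23, 6.23 and 6.32. Every GRHL2 sample exceeded every control sample. The difference was 0.29 (95% confidence interval 0.16 to 0.42), or 1.22-fold on this scale, with an adjusted p of 0.00971 by limma and an exact two-sided permutation p of 0.0286, the smallest that 4 against 4 samples can give. Over all genes, 10.5% were called higher and 14.3% were higher without overlap, so 1 called gene of 10 is close to the background share. Tead3 was higher by 0.31 in replicates 1 and 2 and by 0.27 in replicates 3 and 4, and it stayed past the threshold under all 14 alternative settings with a test (adjusted p 0.000783 to 0.0331). The summed level of 7 biliary and progenitor markers also stood higher in GRHL2 samples (16.87 to 16.99, against 16.64 to 16.84 in controls, log2 scale), with 1 of the 7 genes called higher (Krt7). The fetal liver gene Afp, placed in the hepatocyte list, was called lower (-0.21, adjusted p = 0.0124), as were 5.91% of all genes. It was the only 1 of the 6 hepatocyte genes called in either direction. The summed level of these 6 genes overlapped between groups (11.25 to 11.46 in GRHL2 samples, against 11.32 to 11.45 in controls). The part of these markers in the Tead3 difference was not tested. In bulk samples, a difference in the share of cells that express a gene and a difference in RNA per cell cannot be told apart.

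Promoter sequence is shown for Tead3, which passed the test, for Lats2 and Ankrd1, which passed with the replicate block, and for Ajuba, which holds the longer TEAD word. The sequences are RefSeq promoters on GRCm38.p6 that span the listed start site, read 5′ to 3′ on the gene's strand, and capitals mark each match of GGAATG on either strand (CATTCC when reversed) or of the longer word ACATTCCA.
Tead3, chr17:28350551-28350850, minus strand: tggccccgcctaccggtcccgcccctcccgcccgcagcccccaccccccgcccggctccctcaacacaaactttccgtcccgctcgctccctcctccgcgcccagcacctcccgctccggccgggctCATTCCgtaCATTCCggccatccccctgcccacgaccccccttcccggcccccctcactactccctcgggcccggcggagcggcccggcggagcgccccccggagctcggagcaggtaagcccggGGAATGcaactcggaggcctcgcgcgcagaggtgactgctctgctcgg
Lats2, chr14:57746074-57746373, minus strand: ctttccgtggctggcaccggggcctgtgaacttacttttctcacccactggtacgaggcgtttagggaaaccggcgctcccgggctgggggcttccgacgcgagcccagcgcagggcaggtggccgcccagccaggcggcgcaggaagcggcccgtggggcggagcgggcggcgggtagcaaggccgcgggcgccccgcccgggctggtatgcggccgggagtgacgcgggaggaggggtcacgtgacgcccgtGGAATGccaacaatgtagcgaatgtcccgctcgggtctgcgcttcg
Ankrd1, chr19:36119795-36120094, minus strand: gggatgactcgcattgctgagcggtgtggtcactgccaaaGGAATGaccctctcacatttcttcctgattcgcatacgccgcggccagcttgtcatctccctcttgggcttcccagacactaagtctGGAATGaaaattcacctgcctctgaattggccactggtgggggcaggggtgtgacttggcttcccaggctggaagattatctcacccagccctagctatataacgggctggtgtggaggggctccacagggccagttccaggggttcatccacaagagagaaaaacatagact
Ajuba, chr14:54577612-54577911, minus strand: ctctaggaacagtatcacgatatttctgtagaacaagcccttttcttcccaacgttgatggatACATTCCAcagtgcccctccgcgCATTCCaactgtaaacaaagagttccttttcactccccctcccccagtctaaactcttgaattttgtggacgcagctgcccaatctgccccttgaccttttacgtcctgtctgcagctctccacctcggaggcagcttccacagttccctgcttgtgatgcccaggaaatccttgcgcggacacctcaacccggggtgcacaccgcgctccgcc

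Of the 10 genes, 8 had a listed promoter, and 7 of these 8 held GGAATG in at least 1 of their promoters, Tead2 being the exception. Counted by promoter, 9 of 12 held the word, against 13 of 46 promoters of the other pathway genes and 14.7% of all 32851 listed promoters. Some of the 12 overlap, because Tead3 and Wwtr1 have neighbouring start sites. In the Tead3 promoter shown, the word occurs 3 times, with first bases at -123, -114 and 3 from the start site. In Ankrd1 it begins at -210 and -123, in Lats2 at 5 and in Ajuba at -186 and -164. Another listed promoter of Lats2 (chr14:57734369-57734668) and another of Tead3 (chr17:28350297-28350596) held no match of GGAATG. The longer word ACATTCCA, which contains the reversed GGAATG, was found in Ajuba alone among the 8 genes with a listed promoter and in 1.35% of all promoters. The grainyhead word AACCNGTT (both strands) was found in 0 of the 12 promoters and in 2.09% of all. Such matches describe the letters of these windows and do not show binding.

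Tead1 (chr7:112679318-112906807, plus strand) encodes a broadly expressed TEAD factor. It read 9.55, 9.73, 9.34 and 9.39 in controls and 9.52, 9.56, 9.29 and 9.27 in GRHL2 samples. All 4 GRHL2 samples lay below their same-numbered controls, but the groups overlapped, and the difference of -0.09 did not pass the test (95% confidence interval -0.31 to 0.13, adjusted p = 0.582). With the replicate block, its interval was -0.177 to -0.004, and the adjusted p of 0.102 did not pass either. Replicates 1 and 2 stood above 3 and 4 by 0.28 in controls and by 0.26 in GRHL2 samples.

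Tead2 (chr7:45215753-45233644, plus strand), a TEAD gene known from embryonic tissue, ran the other way across replicates. Its values were 10.51, 10.19, 10.44 and 10.46 in controls and 10.48, 10.34, 10.64 and 10.65 in GRHL2 samples. GRHL2 replicates 3 and 4 were the highest of the 8 and control replicate 2 the lowest. The difference between groups was 0.12 (95% confidence interval -0.07 to 0.32, adjusted p = 0.372, and 0.0573 with the replicate block). The Tead2 exons share 13 bases with Cd37 on the opposite strand, which read at most 2.998 in these samples.

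Tead4 (chr6:128224288-128300823, minus strand), a TEAD factor known from the early embryo, read 8.92, 8.94, 8.77 and 8.83 in controls. GRHL2 samples read 8.97, 9.15, 8.78 and 8.75. The groups overlapped, and GRHL2 replicate 2 was the highest sample. The difference of 0.05 (95% confidence interval -0.15 to 0.24, adjusted p = 0.769) became -0.03 without that sample. Whether Tead3 differed from the other TEAD genes in its response was not tested.

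Ankrd1 (chr19:36111961-36120099, minus strand) encodes an ankyrin repeat protein and is a widely used target gene of YAP and TAZ. It read 12.05, 12.14, 11.38 and 11.32 in controls and 11.94, 12.06, 11.19 and 11.23 in GRHL2 samples. Replicates 1 and 2 were high and replicates 3 and 4 low in both groups, with no sample between 11.38 and 11.94. Each GRHL2 sample lay slightly below the control of its number. Without the block, the mean of 11.61 ± 0.46 (SD, n = 4) in GRHL2 samples did not differ from 11.72 ± 0.43 (SD, n = 4) in controls beyond the spread (difference -0.11, 95% confidence interval -0.67 to 0.44, adjusted p = 0.799 by limma). With the replicate number as a block, the same difference had an interval of -0.19 to -0.04 and passed the test (adjusted p = 0.0257). The same-numbered differences were -0.10, -0.07, -0.20 and -0.08. Without the block, the difference was 0.02 without control replicate 2, 0.02 without GRHL2 replicate 3 and 0.01 without GRHL2 replicate 4, settings that leave the high and low replicates in unequal numbers in the 2 groups.

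The difference of Ankrd1 between replicates 1 and 2 and replicates 3 and 4 was 0.74 in controls and 0.79 in GRHL2 samples. Of all 18671 genes, 0.112% differed by as much or more in the mean of both groups. The genes closest to Ankrd1 over the 8 samples were Pphln1 (Pearson's r = 0.99), Lin9 (0.99) and Trip13 (0.99), all of which follow the same replicate division. These figures are descriptions, since the division was seen in the samples themselves and its source is not given.

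Amotl2 (chr9:102716672-102733418, plus strand), an angiomotin family protein that binds YAP and is also its target, read 12.06, 12.03, 11.80 and 11.80 in controls. GRHL2 samples read 12.05, 12.07, 11.67 and 11.66. The groups coincided in replicates 1 and 2, and GRHL2 samples were lower in replicates 3 and 4 by 0.13. The overall difference of -0.06 (95% confidence interval -0.31 to 0.18, adjusted p = 0.751) was 0.0007 without GRHL2 replicate 3 and was 0.0055 without GRHL2 replicate 4. Replicates 1 and 2 exceeded 3 and 4 by 0.25 in controls and 0.39 in GRHL2 samples.

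Lats2 (chr14:57689662-57758388, minus strand) encodes a LATS kinase and is at once a target gene of YAP and TAZ and their inhibitor. It read 9.38, 9.36, 9.15 and 9.08 in controls and 9.13, 9.08, 8.92 and 8.85 in GRHL2 samples. GRHL2 replicates 1 and 2 reached the level of control replicates 3 and 4, so the groups overlapped, yet every GRHL2 sample lay below its same-numbered control, with differences from -0.28 to -0.22. The difference of -0.25 ± 0.086 (log2 ± SE), or 0.842-fold, missed the threshold without the block (adjusted p = 0.0787 by limma) and passed it with the block (adjusted p = 0.000982). It also passed without control replicate 4 (adjusted p = 0.0481). The drop amounted to -0.27 within replicates 1 and 2, and to -0.23 within 3 and 4. Lats2 exons share 2955 bases with those of Gm49361 on the same strand, so how reads from the shared bases were assigned makes the Lats2 level uncertain.

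Ajuba (chr14:54567472-54577558, minus strand), a LIM protein that binds LATS kinases and restrains them, read 9.90, 9.93, 9.68 and 9.64 in controls. GRHL2 samples read 9.80, 9.91, 9.56 and 9.55. Every GRHL2 sample was below its same-numbered control, the groups overlapped, and the difference of -0.08 (95% confidence interval -0.30 to 0.14) gave adjusted p = 0.611, or 0.0997 with the block. Ajuba exceeded its level of replicates 3 and 4 in replicates 1 and 2 by 0.26 in controls and by 0.30 in GRHL2 samples.

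**Figure D2:**
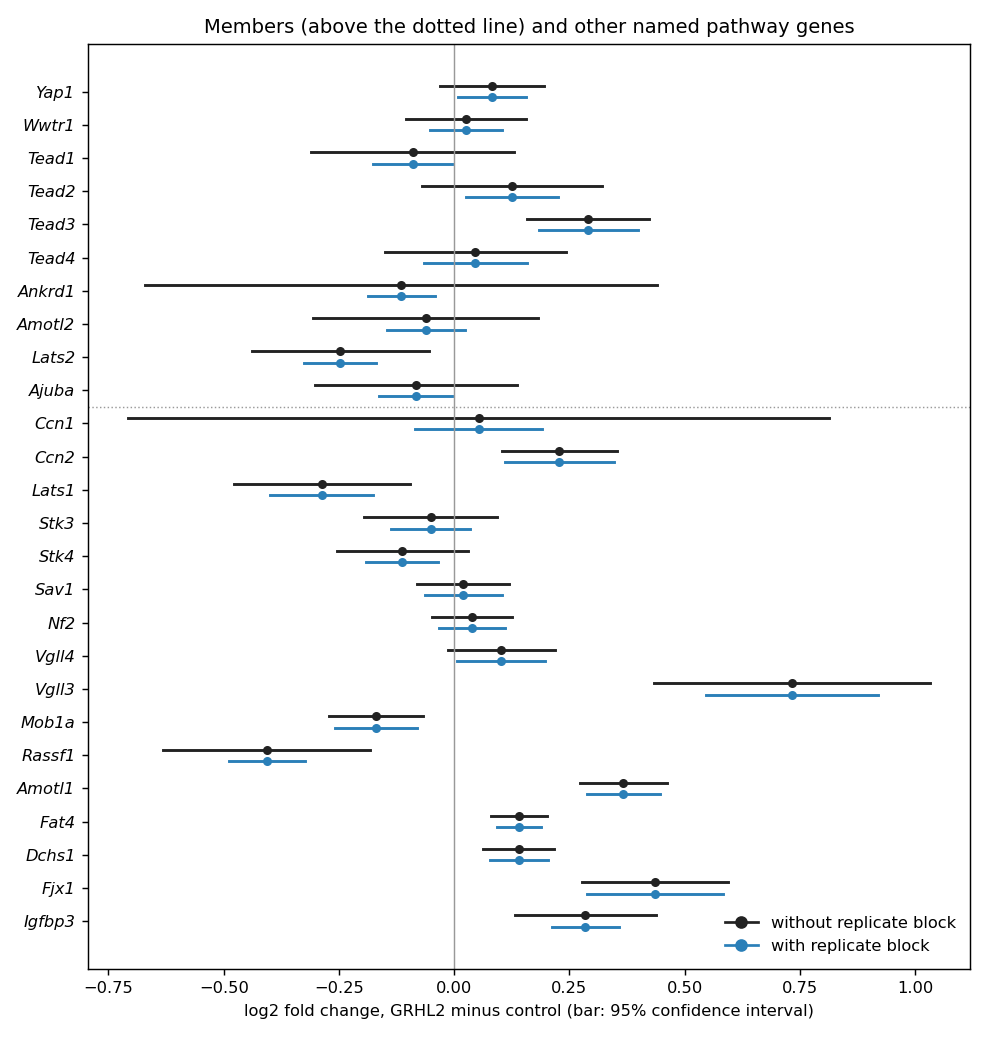
Log2 fold change (GRHL2 minus control, x axis) of the 10 genes, above the dotted line, and of 16 other named pathway genes, with 95% confidence intervals without (black) and with (blue) the replicate number as a block. The interval of Ankrd1 narrows from -0.67 to 0.44 to -0.19 to -0.04, whereas that of Tead3 lies above 0 in both fits.

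Counted together, 1 of the 10 genes was called higher and 0 were called lower by limma, and 2 had an unadjusted p under 0.05 (Tead3 and Lats2, 20% against 31% of all genes). Over all genes, 10.5% were called higher and 5.91% lower. With the replicate block, 1 gene was called higher (Tead3) and 2 lower (Ankrd1 and Lats2), where 18.2% of all genes were called higher and 13.9% lower. Same-numbered pairs were all lower in GRHL2 samples for 4 of the 10 genes (Tead1, Ankrd1, Lats2 and Ajuba), against 21.3% of all genes, and all higher for 2 (Yap1 and Tead3), against 27.3% of all genes. The 10 genes had a median log2 fold change of -0.02, compared with 0.0066 for the whole table. The balance of calls over all genes moved with the scaling, since 63.9% of calls were higher as deposited, 47.1% with equal sample medians and 75.9% with equal upper quartiles.

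Values in replicates 1 and 2 exceeded those in 3 and 4 in both groups for 8 of them, and were lower in both groups for Tead2 and Tead3. Over all genes, 40.6% were higher and 30.3% lower in both groups, and among the 52 other pathway genes 31 were higher and 13 lower. The median difference of the 10 genes was 0.22, against 0.0084 over all genes. It was larger than the absolute log2 fold change for 8 of 10 genes (80%), which was so for 44.2% of all genes and for 53.8% of the 52 other pathway genes.

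**Figure D3:**
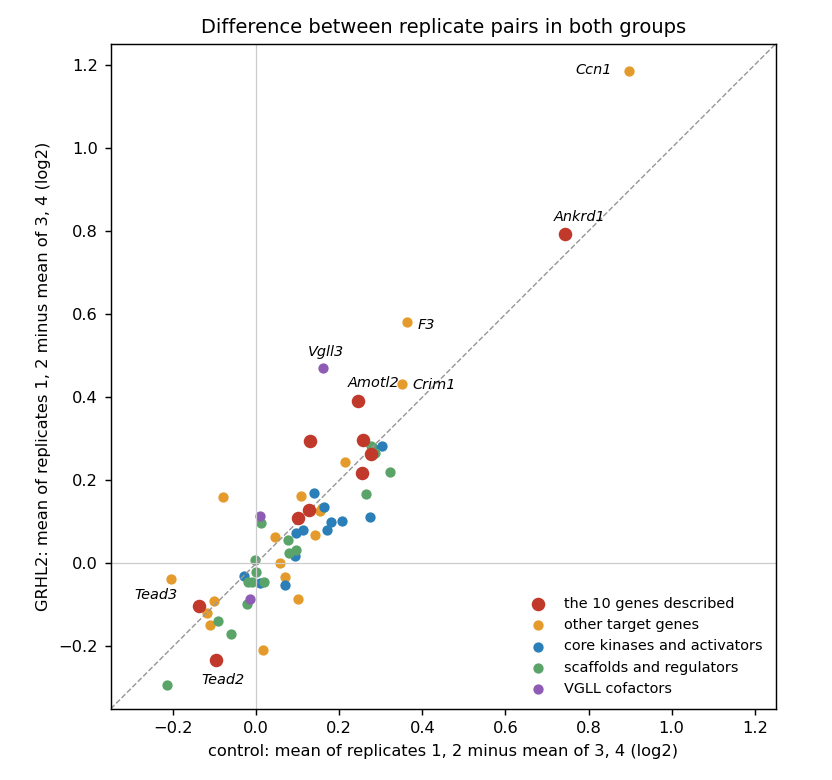
Difference between the mean of replicates 1 and 2 and the mean of replicates 3 and 4 (log2) in controls (x axis) and in GRHL2 samples (y axis) for the 10 genes (red) and the other pathway genes by list, with equality dashed. Ankrd1 (0.74 and 0.79) and Ccn1 (0.90 and 1.19) lie far from the rest, and Tead2 and Tead3 lie below 0 on both axes.

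The other pathway genes came from 4 lists of cofactors, core kinases, scaffolds and further YAP/TAZ targets, with 52 of 54 listed symbols in the table (Vgll2 and Rbms3 were not among its rows). Of the 52, 7 were called higher (13.5%) and 3 lower (5.77%) in GRHL2 samples, near the shares over all genes. With the replicate block, 8 were called higher (15.4%, against 18.2% of all genes) and 11 lower (21.2%, against 13.9%), and Vgll1 was the gene added as higher. Among VGLL cofactors, which bind TEAD in place of YAP, Vgll3 rose from 3.70, 3.73, 3.63 and 3.47 in controls to 4.41, 4.79, 4.05 and 4.21 in GRHL2 samples. This was a log2 fold change of 0.73 ± 0.134 (SE, adjusted p = 0.00577). Its GRHL2 samples stood in the same order as those of Grhl2 itself, a likeness seen after the values were known. Vgll4, known as an inhibitor of TEAD, differed by 0.10 and did not pass (adjusted p = 0.213).

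Among 14 core kinases and activators, limma called 0 higher (against 10.5% of all genes) and 2 lower. The same 2 had an unadjusted p under 0.05 (14.3%, against 31% of all genes). The lower calls were 14.3% of this list, against 5.91% of all genes, and with the block, which added Stk4 and Wwc2, 28.6% against 13.9%. With the block, 0 were called higher, against 18.2% of all genes. Lats1, the partner kinase of Lats2, fell from 8.70, 8.91, 8.52 and 8.54 to 8.41, 8.47, 8.37 and 8.28, a difference of -0.29 (adjusted p = 0.0463). The LATS coactivator Mob1a fell by 0.17 (adjusted p = 0.0324). With the block, the adjusted p was 0.00272 for Lats1 and 0.0106 for Mob1a. Without the block, both calls were lost with single samples left out, although the differences stayed at -0.34 to -0.21 for Lats1 and -0.20 to -0.15 for Mob1a over all 8 such settings, and Lats1 also missed the threshold without the mean-variance trend (adjusted p = 0.0639). Without any one of control replicates 1 and 2 and GRHL2 replicates 1, 2, 3 and 4, the adjusted p of Lats1 was 0.0505 to 0.113, and without any one of control replicates 1, 2 and 3 and GRHL2 replicates 1, 2 and 4 that of Mob1a was 0.0544 to 0.0829. Stk4 (MST1) differed by -0.11, with adjusted p = 0.262 and 0.0355 with the block. Stk3 (MST2) differed by -0.05 (adjusted p = 0.641), Sav1 by 0.02 (0.808, and -0.01 with equal medians) and Nf2 by 0.04 (0.555).

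Of 17 scaffolds and other regulators, 3 were called higher (17.6%, against 10.5% of all genes) and 1 lower (5.88%, against 5.91%). With the block, 3 were called higher (17.6%, against 18.2%), and Csnk1e and Strn3 were added as lower (17.6%, against 13.9%). Amotl1, the paralogue of Amotl2, rose from 9.09, 9.20, 9.16 and 9.15 to 9.51, 9.54, 9.53 and 9.50, a difference of 0.37 (adjusted p = 0.000549) with hardly any difference between replicates. The MST-binding scaffold Rassf1 fell by 0.41 (adjusted p = 0.0225), and this adjusted p was 0.000126 with the block and, in the fit with no block, 0.053 to 0.068 without control replicate 1, control replicate 2, GRHL2 replicate 3 or GRHL2 replicate 4. The atypical cadherin genes Fat4 and Dchs1, a receptor and its ligand, each rose by 0.14, at mean values of only -0.65 and 0.67, and Dchs1 lost its call without control replicate 1 or 3 or GRHL2 replicate 3 or 4 (adjusted p 0.0529 to 0.0594). With equal sample medians both calls were lost (adjusted p 0.0722 for Fat4 and 0.0614 for Dchs1), and that of Dchs1 also without the mean-variance trend (0.055).

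Of 18 further YAP/TAZ target genes in the table, 3 were called higher (16.7%, against 10.5% of all genes) and 0 lower (against 5.91%) by limma. An unadjusted p under 0.05 was found for 6 of the 18 (33.3%, against 31% of all genes), while the block gave 3 called higher (16.7%, against 18.2%) and 4 called lower (22.2%, against 13.9%), namely Axl, Gadd45b, Nt5e and Ptpn14. Fjx1 rose by 0.44 (adjusted p = 0.00315) and Igfbp3 by 0.28 (adjusted p = 0.0195, but 0.0533 without control replicate 3). Ccn2, which encodes the matricellular protein CTGF, read 10.76, 10.63, 10.63 and 10.56 in controls and 10.83, 10.83, 10.86 and 10.97 in GRHL2 samples. Its rise of 0.23 (adjusted p = 0.0218) missed the threshold without control replicate 3, control replicate 4 or GRHL2 replicate 4 (adjusted p 0.056 to 0.0567). The rise itself stayed at 0.22, 0.20 and 0.19 in these settings. Ccn1, its relative CYR61, read 10.94, 11.07, 10.12 and 10.10 in controls and 11.07, 11.34, 9.99 and 10.04 in GRHL2 samples. Like Ankrd1, Ccn1 was divided by replicate, with replicates 1 and 2 higher than 3 and 4 by 2.06-fold and only 0.0107% of genes as far apart. Its difference between groups was 0.05 (95% confidence interval -0.71 to 0.81, adjusted p = 0.938). With equal sample medians Ccn2 (adjusted p = 0.053) and Igfbp3 (0.0513) missed the threshold, Fjx1 was still called higher and Gadd45b was called lower. Without the mean-variance trend Axl was called lower, as was Gadd45b without control replicate 2.

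**Figure D4:**
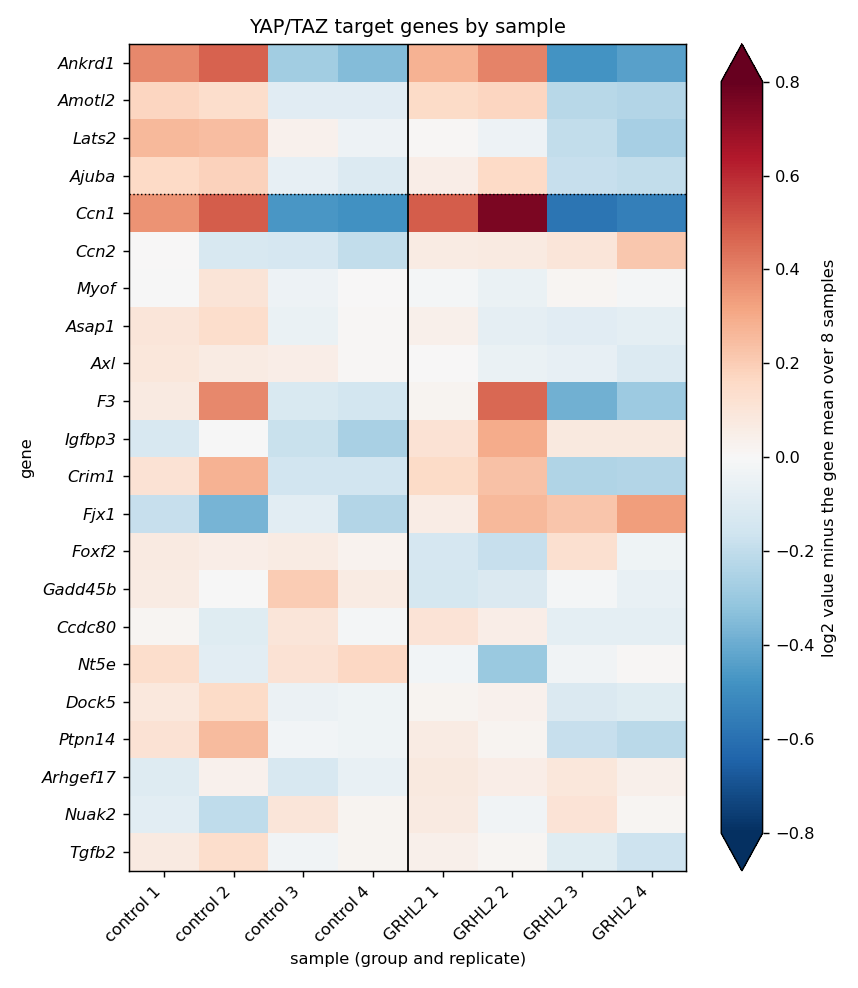
Log2 value minus the gene's mean over 8 samples (colour) for 22 YAP/TAZ target genes (rows, the 4 of the main list above the dotted line) in 8 samples (columns, controls left of the black line). Ankrd1 and Ccn1 are red in replicates 1 and 2 and blue in 3 and 4 of both groups, whereas Fjx1 and Igfbp3 change colour mostly between the groups.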

How the data were processed

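BMEL cells transfected with the GRHL2 plasmid (4 samples) or pcDNA3 (4 samples) were profiled by RNA-seq. The authors aligned reads to mm10 (HISAT2, 2.2.1 in the labels) and counted exonic reads regardless of strand (HTSeq 0.9.1). The authors dropped genes under 10 cumulated reads and used DESeq2 (1.40.2 in the labels) for rlog values, which they corrected for transcript length. The methods text begins with public data and is assumed to apply to BMEL cells. The deposited values are on a log2 scale (4.81% below 0), although the table is named for FPKM. No pseudocount or filter was applied. Depth is unknown, so no counting interval is given.

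GRHL2 samples were compared with controls by limma 3.58.1 in R 4.3.3 (2 groups, empirical Bayes with mean-variance trend, Benjamini-Hochberg over 18671 genes, adjusted p under 0.05) and, for single genes, by exact two-sided permutation. The script was tested on simulated data in which each sample was drawn independently. That simulation holds no replicate division, so it does not check the fits for samples that share a number. Replicate numbers come from the sample labels. Deviations from group means correlated at 0.474 to 0.645 across genes between same-numbered samples, at 0.344 to 0.602 between other samples both in replicates 1 and 2 or both in 3 and 4, and at -0.611 to -0.399 across these pairs of numbers. The numbers were therefore taken to pair the samples, and a fit with the number as a block was an alternative. The others were equal medians, equal upper quartiles, no trend, a mean value of at least 0, a term for replicates 1 and 2 against 3 and 4, and each sample left out. Named genes were the 10 genes, Grhl2, Ccn1, Ccn2, Lats1, Stk3, Stk4, Sav1, Nf2, Vgll4, called genes of the pathway lists (at most 8 per list) and the 3 genes most like Yap1 and Ankrd1. The genes and lists were chosen with earlier results of these data known. Positions are those of GENCODE M21 (GRCm38), matched by symbol.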

Additional observations from a re-analysis of the deposited data

Results flagged for a closer look

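Within the GRHL2 group, Mob1a in replicate 3 read 10.63, far from the other 3 samples at 10.53. This was the only one of 54 groups (27 genes, each in controls and GRHL2 samples) with a sample that far from the rest, and chance gives about 1 in 20 groups, or 2.7 of 54.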

How the results depend on the processing

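Tead3 was the one gene of the 10 called higher under every alternative run. The count called lower, 0 as reported, was 2 with the replicate block and 2 with a term for replicates 1 and 2 against 3 and 4 (Ankrd1 and Lats2 in each), and 0 to 1 when 1 sample was left out. Of the other pathway genes, the count called higher was 3 with equal sample medians (Vgll3, Amotl1 and Fjx1, with Igfbp3, Ccn2, Fat4 and Dchs1 lost), 8 with the block, 9 with equal upper quartiles, 10 with the replicate term and 4 to 8 with 1 sample left out, and the count called lower was 11 with the block, 10 with the replicate term, 4 with equal medians and 0 to 3 with 1 sample left out. Log2 fold changes that did not pass the test without a block changed sign with equal medians for Wwtr1 (-0.0045) and Sav1 (-0.011). With 1 sample left out they reached -0.0088 to 0.055 for Wwtr1, -0.033 to 0.10 for Tead4, -0.27 to 0.025 for Ankrd1, -0.13 to 0.0055 for Amotl2 and -0.19 to 0.26 for Ccn1. Leaving out 1 sample leaves replicates 1 and 2 and replicates 3 and 4 in unequal numbers in the groups. The cause of the other changes was not tested. Fat4, with a mean below 0, had no value under the filter on mean value. The unknown depth and the rlog limit what can be read from low genes.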
